A study of Mus musculus with 6 samples.

Results

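The genes described here are 9 genes of fibroblasts and of the extracellular matrix, Fn1, Col1a1, Col3a1, Thbs1, Spp1, Plau, Fap, Pdgfrb and Vim, out of 770 genes counted in mouse melanoma tumours. They were taken by name from the raw count table of an immune gene panel. They were chosen by role with their fold changes between treated and control tumours already known, so their differences between the groups are given as a description, with no test. All 9 were measured, and all 9 passed the minimum mean raw count of 20 that 548 of the 770 genes passed. The samples were 3 control tumours and 3 tumours from mice given 4'-BR, which is 4'-bromo-resveratrol, a brominated analogue of resveratrol. Treated mice received 30 mg/kg by intraperitoneal injection on 3 days of each week for 5 weeks, and the handling of the control mice is not stated. Both groups were mice of 1 engineered melanoma genotype that includes the activated allele BrafV600E, with tumours started at 10 weeks of age by painting 4-hydroxy-tamoxifen on the back. The labels do not state the driver of recombination or the sex of the mice. RNA of the whole tumour was counted on the nCounter platform, which tags each RNA molecule with a barcoded probe and counts the barcodes without amplification. The labels give 6 mice and do not say that each sample came from a different mouse.

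Fibroblasts build the scaffold of a tumour by secreting fibrillar collagens and fibronectin, which cells grip through integrins. Matricellular proteins such as thrombospondin-1 and osteopontin sit in this scaffold and act as signals, and proteases such as urokinase and fibroblast activation protein remodel it. Several of these genes are not restricted to fibroblasts: macrophages also make fibronectin, thrombospondin-1 and osteopontin, pericytes carry PDGF receptor beta, and melanoma cells express vimentin. In whole-tumour RNA, fewer cells of a type and less RNA per cell cannot be told apart.

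The promoters of Col3a1, Spp1 and Vim are shown because promoter windows were at hand for these 3 of the 9 genes only. The sequences are RefSeq windows of assembly GRCm38.p6, from 250 bases before to 50 bases after the start of the gene. Letters in capitals are matches, on either strand, to TATAAA, the TATA box, or to CCAAT, which reads ATTGG on the other strand.
Col3a1, chr1:45311288-45311587, plus strand: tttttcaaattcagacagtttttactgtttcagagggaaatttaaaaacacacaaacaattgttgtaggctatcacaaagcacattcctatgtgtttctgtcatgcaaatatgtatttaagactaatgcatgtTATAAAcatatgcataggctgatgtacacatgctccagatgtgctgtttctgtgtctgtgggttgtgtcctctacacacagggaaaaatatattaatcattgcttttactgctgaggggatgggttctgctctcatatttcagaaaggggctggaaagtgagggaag
Spp1, first of its start sites, chr5:104434861-104435160, plus strand: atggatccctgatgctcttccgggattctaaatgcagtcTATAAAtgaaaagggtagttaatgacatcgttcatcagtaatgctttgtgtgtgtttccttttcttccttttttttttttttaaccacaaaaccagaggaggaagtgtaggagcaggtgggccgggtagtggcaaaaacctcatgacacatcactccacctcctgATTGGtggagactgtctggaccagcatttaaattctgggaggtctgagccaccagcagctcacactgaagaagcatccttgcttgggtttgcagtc
Vim, chr2:13574061-13574360, plus strand: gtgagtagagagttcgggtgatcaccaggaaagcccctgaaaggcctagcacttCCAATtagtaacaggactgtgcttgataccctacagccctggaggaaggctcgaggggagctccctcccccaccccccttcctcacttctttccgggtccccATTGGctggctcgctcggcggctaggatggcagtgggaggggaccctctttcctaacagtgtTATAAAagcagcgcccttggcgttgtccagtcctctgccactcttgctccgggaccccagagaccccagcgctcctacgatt

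The Col3a1 window held TATAAA at position -117 from the start and no CCAAT. The Spp1 window held TATAAA at -211 and CCAAT on the minus strand at -46. The Vim window held TATAAA at -32 and CCAAT at -196 on the plus and at -94 on the minus strand. Of 32851 promoter windows of the same length, 13.6% held TATAAA and 37.4% held CCAAT. The GC box GGGCGG and the AP-1 motif TGANTCA were searched on both strands as well and had no match in these 3 windows, against 35.7% and 7.81% of all windows. The Vim window was the richest of the 3 in G and C, at 59.3%, where Col3a1 had 37.7%, Spp1 45.3% and the median over all windows was 52.7%. A second Spp1 window, at another start site and not shown, had 36.7% G and C and no match to any of these motifs. A match says only that the letters are present.

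Total counts over the 770 genes ran from 322485 to 472402 in control and from 118221 to 254862 in treated samples, so treated values carry the larger counting error. Each level below is a scaled count: the raw count divided by the sample's geometric mean over 20 housekeeping probes, that mean being expressed relative to its average over the 6 samples. The positive control probes, which read synthetic RNA added in constant amount, gave geometric means from 651 to 757 in control and from 384 to 672 in treated samples. The negative control probes reached a raw count of at most 13, and the lowest raw count among the 9 genes was 32.

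Of the 9 genes, 8 were lower in all 3 treated samples than in all 3 control samples, and Vim was not. Among the 548 genes tested, 17.9% had every control sample above every treated sample. In the edgeR fit over all 548 genes, 6 of the 9 genes lay past an adjusted p of 0.05, all lower. These 6 were Fn1, Col1a1, Col3a1, Thbs1, Plau and Fap. Of all tested genes 5.66% were called lower and 1.28% higher. Since the contrast served to choose the genes, nothing is read from these counts. Of the 9 genes, the number past the threshold was 7 without control sample 3 and 0 or 1 without any other single sample. The share of all genes called lower was 5.91% without control sample 3 and between 0 and 1.14% without any other. The median log2 fold change over the 9 genes was -0.87, and over all tested genes it was -0.04.

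**Figure D1:**
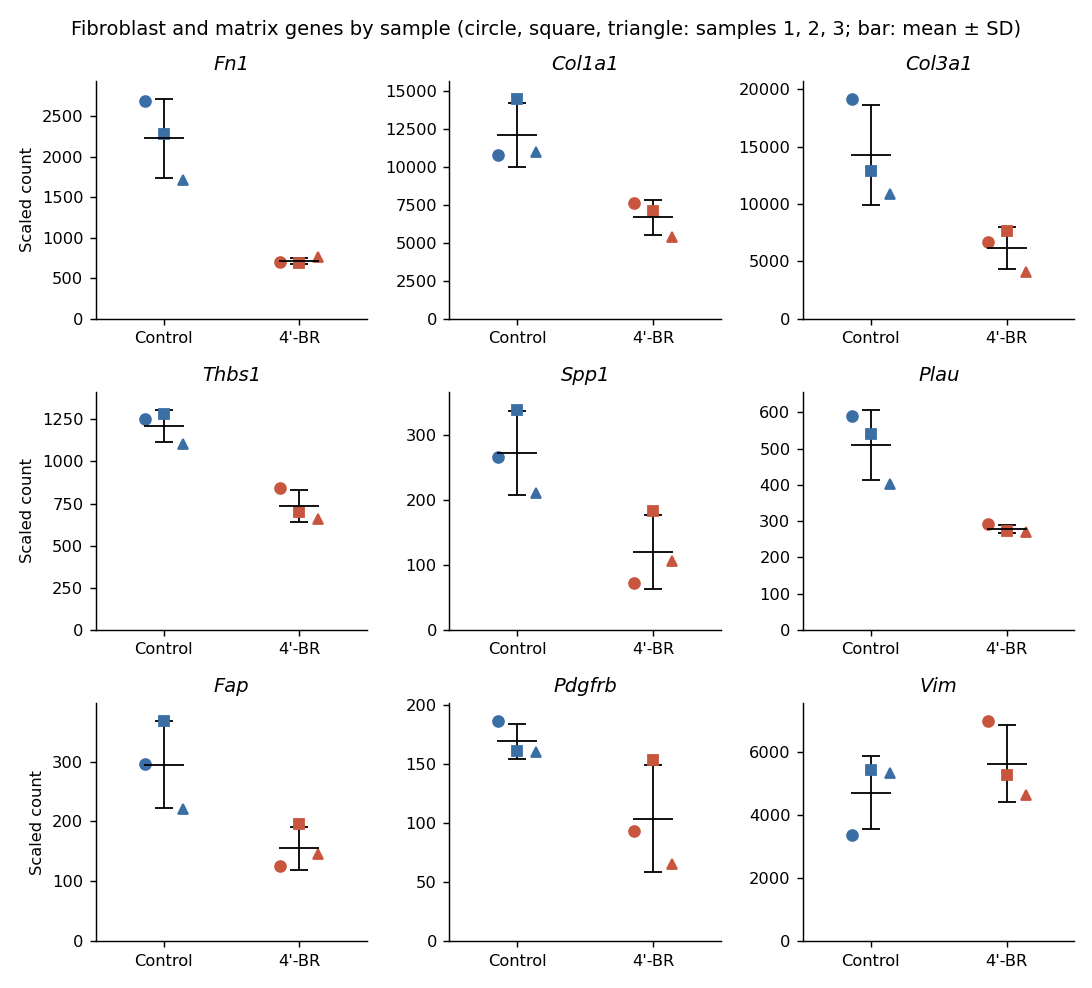
Scaled counts of the 9 genes in each sample, with control samples in blue and 4'-BR samples in red; bars are the mean ± SD of 3 samples and each vertical axis starts at 0. Every panel but that of Vim shows the treated points below all control points, with Pdgfrb the narrowest gap.

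Fn1 encodes fibronectin, the glycoprotein that links collagen fibres to integrins on cells. It was at 2685, 2280 and 1712 scaled counts in control samples 1, 2 and 3, and at 694, 691 and 758 in treated samples 1, 2 and 3. The lowest control sample stood 2.26 times above the highest treated sample. The treated samples lay close together with housekeeping scaling, but with positive control scaling they deviated from their group's mean by 0.21, -0.37 and 0.17 on the log2 scale. The means were 2226 ± 489 and 714 ± 38.0 (SD, n = 3 each), a log2 fold change of -1.64 (SE 0.19), or 3.12-fold lower. Only 0.9% of the 548 tested genes had a more negative fold change.

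Col1a1 encodes the alpha-1 chain of type I collagen, the main fibre of dermis and scar. Its scaled counts were 10824, 14517 and 11010 in control and 7617, 7077 and 5374 in treated samples. The groups did not overlap, with control sample 2 the highest and treated sample 3 the lowest. The means were 12117 ± 2081 and 6689 ± 1171, a log2 fold change of -0.86 (SE 0.20).

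Col3a1 encodes the chain of type III collagen, which forms finer fibres beside type I. It was at 19189, 12872 and 10831 scaled counts in control and at 6701, 7676 and 4076 in treated samples. Control sample 1 stood well above the other controls, and treated sample 3 was the lowest of all. The means were 14297 ± 4357 and 6151 ± 1862, a log2 fold change of -1.22 (SE 0.28). Without control sample 1 the log2 fold change was -0.95.

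The ratio of 2 genes within a sample does not depend on how samples are scaled. The count of Col3a1 over that of Col1a1 was 1.77 in control sample 1, 0.887 in control sample 2 and 0.984 in control sample 3. In treated samples it was 0.880, 1.09 and 0.759. The 2 collagen genes thus did not keep 1 ratio across tumours, and control sample 1 stood above the other 5 samples. The ratio of Fn1 to Col1a1 ran from 0.156 to 0.248 in control and from 0.091 to 0.141 in treated samples, without overlap. How often ratios do not overlap was not counted over all pairs of genes. Such ratios also carry the unequal efficiency of the probes, so their size is meaningful only between samples.

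Thbs1 encodes thrombospondin-1, a matricellular protein that binds CD36 and CD47 and restrains vessel growth. Its scaled counts were 1252, 1280 and 1101 in control and 843, 701 and 659 in treated samples. With housekeeping scaling its control samples were the tightest of the 9 genes, with an SD that was 7.93% of the mean, whereas with positive control scaling those of Pdgfrb were tighter. The means were 1211 ± 96.1 and 734 ± 96.4, a log2 fold change of -0.72 (SE 0.16).

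Spp1 encodes osteopontin, a secreted phosphoprotein that binds integrins and CD44. It was at 266, 339 and 210 scaled counts in control and at 72.3, 183 and 105 in treated samples. Treated sample 2 came close to control sample 3, and the treated samples differed among themselves by 2.53-fold with housekeeping scaling. The means were 272 ± 64.4 and 120 ± 56.9, a log2 fold change of -1.20 (SE 0.32). The raw counts behind the treated values were 70, 109 and 52. The 95% counting interval of treated sample 2 on the scaled counts, from 150 to 221, reached into that of control sample 3, from 186 to 237. These exact Poisson intervals cover counting error only.

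Plau encodes urokinase, the secreted protease that turns plasminogen into plasmin. Its scaled counts were 589, 540 and 402 in control and 291, 274 and 270 in treated samples. All treated samples lay below every control. Their SD was 4.11% of the mean with housekeeping scaling, but with positive control scaling they deviated from their group's mean by 0.31, -0.35 and 0.04 on the log2 scale. The means were 510 ± 96.7 and 278 ± 11.4, a log2 fold change of -0.87 (SE 0.18).

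Fap encodes fibroblast activation protein, a surface protease of activated fibroblasts. Its scaled counts were 297, 367 and 221 in control and 125, 195 and 146 in treated samples. The gap between the groups was small, since control sample 3 stood 1.13 times above treated sample 2. The means were 295 ± 73.2 and 155 ± 35.9, a log2 fold change of -0.93 (SE 0.24).

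Pdgfrb encodes the beta receptor for platelet-derived growth factor, carried by pericytes and fibroblasts. It was at 186, 161 and 160 scaled counts in control and at 92.9, 153 and 64.9 in treated samples. Treated sample 2 lay just under the lowest control, by a factor of 1.04, and the 95% counting interval of treated sample 2, from 123 to 188, covered control samples 1, 2 and 3. The means were 169 ± 15.0 and 104 ± 45.0, a log2 fold change of -0.70 (SE 0.28). The lowest raw count of the 9 genes, 32 in treated sample 3, was that of Pdgfrb, with a 95% counting interval from 21.9 to 45.2. The fitted log2 fold change was -1.07 without treated sample 2 and -0.47 without treated sample 3. When samples were scaled by their total count, the groups of Pdgfrb overlapped.

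Vim encodes vimentin, the intermediate filament protein of mesenchymal cells and of melanoma cells. Its scaled counts were 3385, 5430 and 5345 in control and 7000, 5267 and 4642 in treated samples. The groups overlapped, with control sample 1 the lowest and treated sample 1 the highest of the 6. The means were 4720 ± 1157 and 5636 ± 1222, a log2 fold change of 0.26 (SE 0.23), which turned to -0.37 with scaling by the positive control probes. That scaling moved the median of all tested genes from -0.04 to -0.67. Since it moved all genes nearly alike, Vim stayed above the median, by 0.29 with housekeeping and 0.31 with positive control scaling.

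Ratios within samples were also taken for Vim against Col1a1 and Fn1. The count of Vim over that of Col1a1 ran from 0.313 to 0.485 in control and from 0.744 to 0.919 in treated samples. Vim over Fn1 ran from 1.26 to 3.12 in control and from 6.12 to 10.1 in treated samples. In both ratios every treated sample stood above every control sample. Fn1 over Thbs1 did not overlap either, with treated samples lower. Fap over Pdgfrb, Thbs1 over Plau and Spp1 over Fn1 did overlap. The ratios restate the contrast that served to choose the genes, so nothing is read from their separation.

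**Figure D2:**
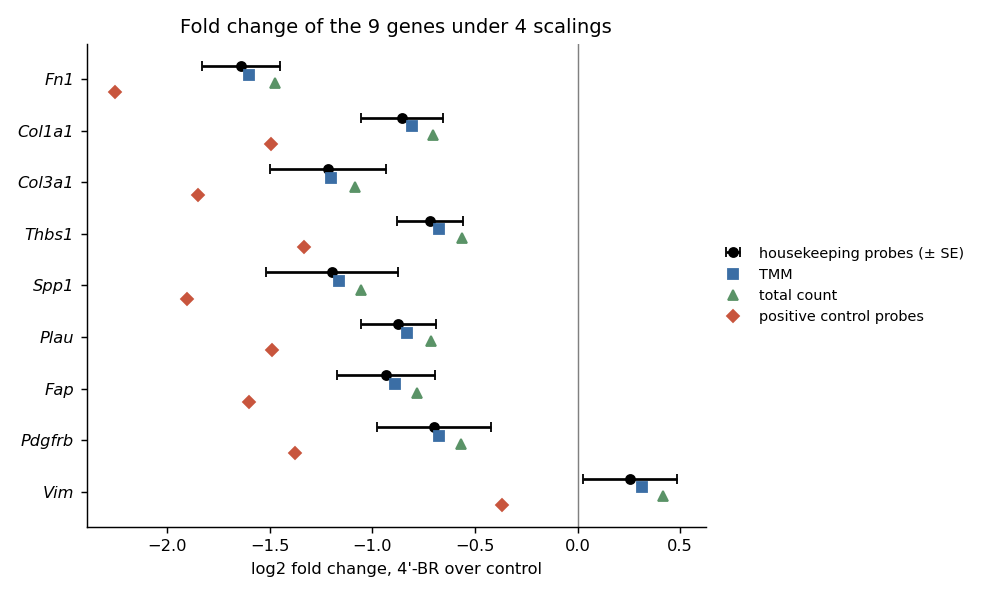
Log2 fold change of each gene, 4'-BR over control, under 4 scalings, with the SE of the edgeR fit drawn for the housekeeping scaling. Positive control scaling shifts every gene to the left by a like amount, and Vim is the gene whose sign changes.

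The order of the samples within each group does not use the contrast. All genes share the scaling factor of each sample, and the order was not counted over all tested genes. The counts below therefore describe the 9 genes and do not show that they varied together. Among control samples, sample 3 was the lowest for 7 of the 9 genes. For Pdgfrb this was a near tie, with control sample 2 at 161 and control sample 3 at 160. The highest control was sample 2 for 5 genes and sample 1 for 4 genes, and with positive control scaling it was sample 2 for 8 genes and sample 1 for 1. Col1a1 and Vim were the exceptions at the bottom, with control sample 1 lowest. With positive control scaling sample 3 was again lowest for 7 genes, and with total count scaling for 6.

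Among treated samples, sample 3 was the lowest for 6 of the 9 genes, sample 1 for 2 and sample 2 for 1. This order depended on scaling, since sample 3 was lowest for 2 genes with positive control scaling and for 3 with total count scaling. Treated sample 3 also had the lowest total count and the lowest positive control mean of the 6 samples, and the part of either in its order was not tested.

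Of the 36 pairs that the 9 genes form, 3 shared 1 order of samples in both groups, against 5 with positive control and 2 with total count scaling. Spp1 and Fap ran from sample 2 through 1 to 3 in control and from sample 2 through 3 to 1 in treated tumours. Their deviations from the group mean on the log2 scale were 0.34 for Spp1 and 0.35 for Fap in control sample 2, and 0.71 and 0.35 in treated sample 2. This pair kept its shared order with positive control and with total count scaling, but with positive control scaling the treated samples of Fap were nearly tied, at -0.04, 0.03 and 0.02. Col1a1 and Vim shared an order as well, as did Col3a1 and Pdgfrb. With positive control scaling Col1a1 and Vim again shared an order, but a different one among treated samples, and with total count scaling they shared none. Col3a1 and Pdgfrb shared none with either.

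With housekeeping scaling treated sample 2 carried the widest single departure. On the log2 scale it stood above its group's mean by 0.71 for Spp1, 0.65 for Pdgfrb, 0.37 for Col3a1, 0.35 for Fap and 0.10 for Col1a1, while Fn1 was at -0.05, Plau at -0.02, Thbs1 at -0.06 and Vim at -0.08. With positive control scaling it stood at 0.39 for Spp1, 0.325 for Pdgfrb, 0.04 for Col3a1 and 0.03 for Fap, with Fn1 at -0.37 and Plau at -0.35. The size of these departures therefore depended on the scaling. Spp1 and Pdgfrb were the highest of the 9 genes in this sample. A change of scaling shifts all genes of a sample alike, so it could not alter that ranking.

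**Figure D3:**
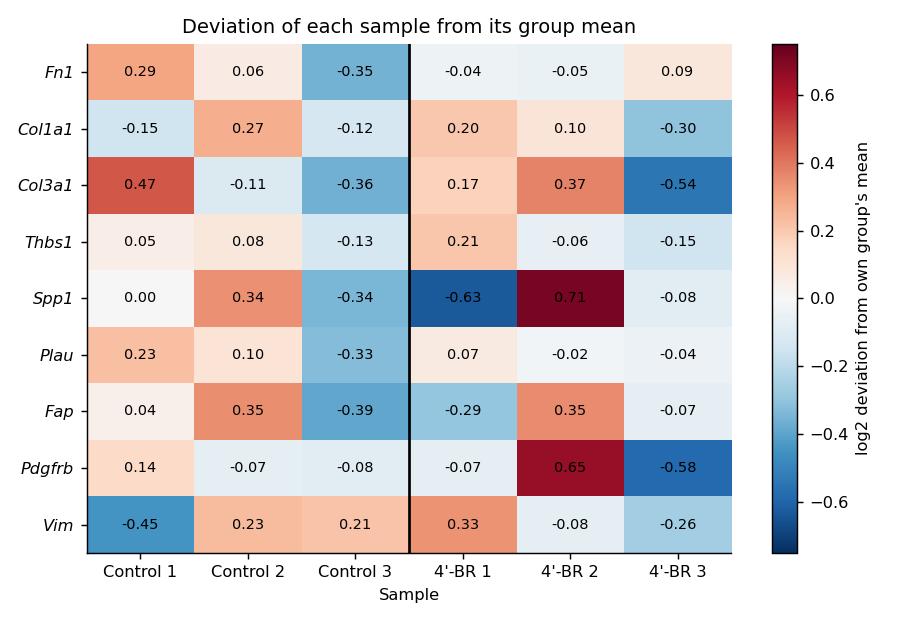
Deviation of each sample from the mean of its own group, in log2 counts with housekeeping scaling, with genes in rows, samples in columns and a line between the groups. Control sample 3 is below its group's mean for every gene but Vim, and treated sample 2 is above 0.3 for Spp1, Pdgfrb, Col3a1 and Fap.

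Likeness between genes was measured as the root mean square difference between their log2 scaled counts over the 6 samples, each gene centred on its own mean and 1 added to each raw count. The scaling factor of each sample is shared by all genes and cancels in this difference, so the measure does not depend on the scaling. Genes that differ alike between the groups come out as near, so the measure is a description. The closest pair among the 9 was Thbs1 and Plau, at 0.14, followed by Thbs1 and Col1a1 at 0.16 and Col1a1 and Plau at 0.23. The collagen genes Col1a1 and Col3a1 were at 0.39 from each other, and the protease genes Plau and Fap at 0.25. Vim lay farthest from all others, from 0.56 to Thbs1 up to 1.04 to Fn1.

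**Figure D4:**
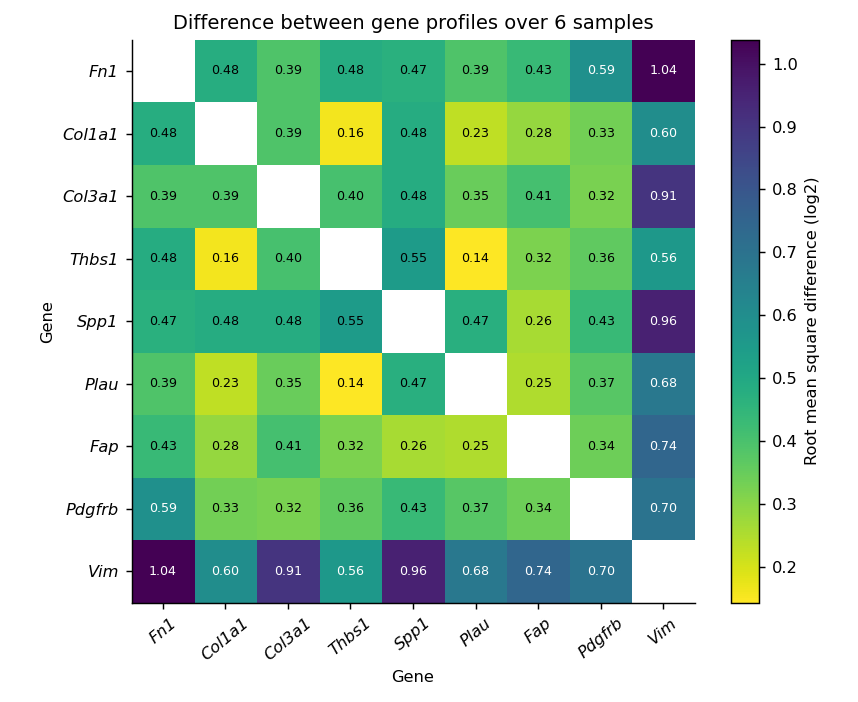
Root mean square difference in log2 scaled counts over 6 samples for each pair of the 9 genes, with each gene centred on its own mean; lighter cells are more alike. The row of Vim is the darkest, and Thbs1 with Plau is the closest pair at 0.14.

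Among all 548 tested genes, the nearest to Col1a1 were H2-M3, a non-classical MHC class I gene, at 0.10, and the integrin beta-1 gene Itgb1 at 0.11. Itgb1 was also the nearest to Thbs1, at 0.081, followed by Thy1, a surface glycoprotein of fibroblasts and T cells, at 0.086. Col3a1 was nearest to Colec12, a scavenger receptor gene, at 0.15, and to Itga1, the alpha-1 chain of a collagen-binding integrin, at 0.16. For Fap they were the complement genes C1ra at 0.11 and Serping1 at 0.15, and for Spp1 C1ra was the second nearest, at 0.215. Fn1 had its nearest genes in Ccl6, a chemokine, at 0.27 and the chemokine receptor Ccr1 at 0.28. Plau was nearest to Lbp at 0.11 and Cd33 at 0.14, Pdgfrb to Rrad at 0.11 and Vhl at 0.17, and Vim to Ikzf1 at 0.099 and Mavs at 0.11. None of these nearest genes was among the 9 themselves.

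Other genes of the same biology were taken from lists of fibroblast genes, matrix genes, receptors of the 9 genes' proteins and growth factor signalling to fibroblasts. Of 55 listed genes 34 were measured and 32 tested. In the edgeR fit 2 of the 32 fell, 0 rose, and 6.93% of all tested genes were called. The median log2 fold change of the 32 was -0.21, against -0.04 over all 548 genes, with 20 negative and 12 positive.

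Ccl11, the eosinophil chemokine eotaxin, which dermal fibroblasts make, was at 1059, 1635 and 640 scaled counts in control and at 341, 400 and 355 in treated samples. All treated samples lay below all controls. The means were 1111 ± 500 and 365 ± 30.9, and it fell with a log2 fold change of -1.61 (SE 0.30, edgeR adjusted p = 0.0356). It was 1 of 9 tested fibroblast genes to do so, with a list median of -0.33. Without control sample 2, its highest, the log2 fold change was -1.22 (edgeR adjusted p = 0.0414), and without control sample 1 or any treated sample the adjusted p was 0.0528 to 0.133.

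Cxcl14 at -0.58 (edgeR adjusted p = 0.0635) and Thy1 at -0.57 (edgeR adjusted p = 0.0692) did not pass. Both passed in DESeq2 (adjusted p = 0.033 and 0.0463), which called 9.12% of all tested genes lower. Both also passed in edgeR with positive control scaling, which called 44.3% lower. Cfd, an adipocyte and fibroblast complement protease, was at 0.57, and the mesenchymal transcription factor gene Twist1 at 0.31, neither past the threshold.

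Of 3 tested matrix genes none passed in edgeR with housekeeping scaling, and 1 had an unadjusted p under 0.05. Col4a1, which encodes a chain of basement membrane collagen, was at 6064, 8543 and 5915 scaled counts in control and at 4387, 5688 and 2854 in treated samples. Its groups did not overlap, and its log2 fold change was -0.67 (SE 0.26, edgeR adjusted p = 0.157). It passed in DESeq2 (adjusted p = 0.0393) and with positive control scaling (edgeR adjusted p = 0.000218). Mmp9, a gelatinase gene, was at 0.38 (edgeR adjusted p = 0.422), and at -0.26 with positive control scaling, where the median of all tested genes was -0.67.

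Among 12 tested receptor genes Itgb1, the beta-1 chain shared by the fibronectin and collagen integrins, fell. It was at 2043, 2350 and 2001 scaled counts in control and at 1545, 1291 and 1070 in treated samples, without overlap. The log2 fold change was -0.71 (SE 0.17, edgeR adjusted p = 0.0431), and the adjusted p was 0.0595 to 0.133 when any single sample was left out and 0.0518 with total count scaling. Itga1 was at -1.05 (edgeR adjusted p = 0.0545), just outside the threshold. It passed with TMM scaling (edgeR adjusted p = 0.0418), total count scaling (0.0464), positive control scaling (1.23e-05), no count minimum (0.0433) and the replicate block (0.0448), and in DESeq2 (adjusted p = 0.00185) and limma (adjusted p = 0.0462 and 0.0473). It did not pass with a count minimum of 50 (edgeR adjusted p = 0.0575). Without single samples its edgeR adjusted p ran from 0.0492 to 0.161, and it passed only without control sample 3. Cd47, a receptor of thrombospondin-1, was at 0.34 (edgeR adjusted p = 0.195). Every treated sample lay above every control for Cd47, as for 12.6% of all tested genes. With total count scaling Cd47 passed at 0.50 (edgeR adjusted p = 0.0495), where 5.47% of all tested genes were called higher. With positive control scaling it was at -0.30, where the median of all tested genes was -0.67. The list median was -0.21.

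Of the 12 tested receptor genes, 7 had negative and 5 had positive log2 fold changes. Itga5, the alpha chain of the fibronectin receptor, was at 0.22, Cd44 of the osteopontin receptors at 0.27, Cd36 at 0.15 and Itga6 at 0.35. On the negative side were Itga4 at -0.66, Itgb3 at -0.46, Lrp1 at -0.335, Itga2 at -0.09 and Plaur, the urokinase receptor gene, at -0.32. None of these was past the threshold. A difference between ligands and receptors was not tested.

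None of the 8 tested genes of TGF-beta signalling passed in edgeR with housekeeping scaling, and none had an unadjusted p under 0.05. Their log2 fold changes ran from -0.27 for Tgfb3 to 0.28 for Smad2, with a median of -0.21. Smad4 was at -0.26 (edgeR adjusted p = 0.399), and with positive control scaling at -0.91 (edgeR adjusted p = 0.00762), past the threshold. That scaling called 44.3% of all tested genes lower and moved their median to -0.67. Smad2 was negative with that scaling, at -0.32 (edgeR adjusted p = 0.362).

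**Figure D5:**
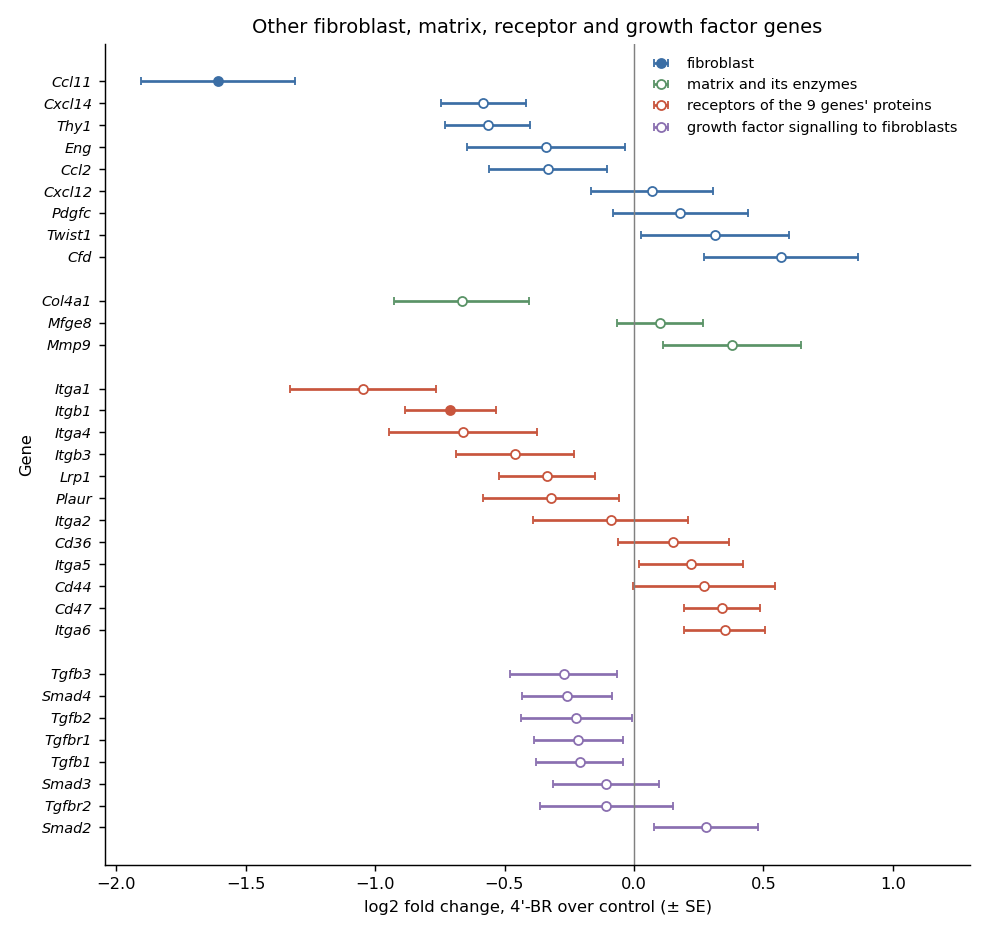
Log2 fold change, 4'-BR over control, with its SE for 32 other genes in 4 lists; filled points passed an adjusted p of 0.05. The 2 filled points are Ccl11 and Itgb1, and the TGF-beta genes lie between -0.27 and 0.28.

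Summed markers of other cell types were compared with housekeeping scaling only, so how far they depend on the scaling is not known. Among the 548 tested genes, 17.9% had every control sample above every treated sample, and 12.6% had the reverse. These are shares of single genes, and no such share was computed for sums. The summed scaled counts of 8 of 8 measured macrophage markers ran from 2515 to 3218 in control and from 1457 to 1998 in treated samples, without overlap. Those of 4 measured keratinocyte markers of 6 listed ran from 3376 to 3948 and from 4789 to 5537, again without overlap and in the other direction. Those of 5 T cell markers, of which 4 passed the count minimum, ran from 93.6 to 168 and from 170 to 255, just without overlap. The negative probes, not subtracted here, averaged from 3.74 scaled counts in treated sample 1 to 8.11 in treated sample 3. For 6 of 7 endothelial markers the ranges overlapped, from 415 to 532 and from 314 to 429. Of 6 melanocyte markers S100b was the 1 measured, from 485 to 663 and from 312 to 876. No measured marker was at 0 in all samples. The part of these cell types in the differences of the 9 genes was not tested.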

How the data were processed

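Expression was measured in 3 control and 3 4'-BR tumour RNA samples, grouped by their titles. The deposited raw table gives barcode counts per probe, per the file headers, for 750 endogenous, 20 housekeeping, 6 positive and 8 negative probes. The authors' normalized score per gene, in the series table, lay within 1.4 of the raw count times a sample factor that equalises the housekeeping geometric mean. The authors' software is not stated. Probes carry the file's symbols, and the transcript identifiers of all 9 genes matched RefSeq.

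Raw counts were fitted with edgeR 4.0.16 in R 4.3.3 (glmQLFit, glmQLFTest) with housekeeping scaling, and 548 genes whose raw counts averaged 20 or more. P-values are two-sided, Benjamini-Hochberg adjusted over 548 genes, with a threshold of 0.05, and measure the spread between these samples, which may be technical. Replicates differed by more than counting noise (chi-square per degree of freedom 7.3 to 26.2 over 6 pairs). The script was tested on simulated data. Alternatives were other scalings and count minimums, DESeq2 1.42.0, limma 3.58.1 on log2 deposited values, a replicate block and leaving out single samples. Members and lists were chosen with earlier results of these data known. Named were the 9 genes, listed genes past the threshold, the 2 next by p in each list and the 2 nearest genes of each. Part of the genotype and 1 nearest gene are not reported here. Other named genes were chosen after their values were seen.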

Additional observations from a re-analysis of the deposited data

How the results depend on the processing

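Of 135 recomputed fold changes of the 9 genes, 134 kept their sign, Vim with positive control scaling being the exception, and 10 moved by more than the spread between replicates. Of these, 9 arose with positive control scaling, where the log2 fold changes were -2.25 for Fn1, -1.49 for Col1a1 and Plau, -1.85 for Col3a1, -1.33 for Thbs1, -1.90 for Spp1, -1.60 for Fap, -1.375 for Pdgfrb and -0.37 for Vim, and the last was Thbs1 at -0.56 with total count scaling. The median of the 9 moved to -1.49 with positive control scaling, and ran from -1.07 to -0.74 when single samples were left out. Its distance from the median of all genes was -0.83 with housekeeping and -0.82 with positive control scaling. A change of scaling moves all genes nearly alike, so this distance could hardly change. Mmp9, Cd47 and Smad2 turned negative with positive control scaling, at -0.26, -0.30 and -0.32, where the median of all tested genes was -0.67. Genes past the threshold numbered 38, and 60 with total count scaling, 244 with positive control scaling, 78 with DESeq2 and 0 to 36 without single samples. In edgeR the 36 arose without control sample 3, and the 0 without treated sample 1 and without treated sample 2. Among the 32 other genes of the lists 2 passed, and 6 with DESeq2, 20 with positive control scaling and 0 to 2 without single samples. Of all tested genes 14.2% passed with DESeq2 and 44.5% with positive control scaling. The cause of these changes was not tested. No pairing by replicate number was evident. Same-numbered samples correlated at -0.075, 0.078 and 0.203, and differently numbered ones from -0.31 to 0.221. With 3 samples per group these values cannot exclude a pairing. With the replicate block 30 genes passed, and Itgb1 was at -0.72 and no longer past the threshold. Depth limits Pdgfrb and Spp1 most, with the fewest counts in treated samples.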
